A study of Mus musculus with 8 samples.

Results

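The NRF2 and thioredoxin antioxidant genes are 9 genes chosen by symbol: Nfe2l2, Keap1, Nqo1, Hmox1, Osgin1, Txnrd1, Txn1, Prdx1 and Srxn1. Each symbol was matched to 1 Ensembl gene ID through GENCODE mouse release M21, which gave 9 of the 47069 genes counted in every library, and all 9 passed the filter on low counts that left 14263 genes for testing. They were described in CPM, the counts of a gene scaled to a common library size, across the time course to see whether genes that respond to oxidative stress through NRF2 changed apart from the targets of ATF4. The rule that names them uses no measured value, but the members were chosen with earlier results of these data known.

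RNA was sequenced from MLL-AF9 acute myeloid leukaemia cells of mice, sorted from leukaemic animals by their GFP. MLL-AF9 is a fusion oncogene that transforms myeloid progenitors. All 4 groups carried TetO-Klf4, a transgene from which doxycycline switches on the transcription factor KLF4, and all were labelled bone marrow and strain C57BL/7. The groups were 0h, 6h, 12h and 24h, with 2 libraries each, and no group without the transgene was analysed here. What the hours were counted from, whether doxycycline was given to mice or to cultured cells, and which cells can use the TetO promoter are not given in the labels. The replicates are not said to be separate animals or cultures, and the p-values therefore reflect only the spread between libraries, which may be technical.

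NRF2, the product of Nfe2l2, is a transcription factor that drives detoxifying and antioxidant enzymes. KEAP1 holds it in the cytoplasm and hands it to a ubiquitin ligase for breakdown, and oxidants or electrophiles that modify KEAP1 let NRF2 reach its targets through antioxidant response elements. Much of this control acts on the protein, so the mRNA of Nfe2l2 is a poor gauge of NRF2 activity and its targets are usually read in its place. Among them, the thioredoxin system passes electrons from NADPH through thioredoxin reductase to thioredoxin, which recharges the peroxiredoxins that remove hydrogen peroxide. In acute myeloid leukaemia cells this machinery buffers the peroxide made by metabolism and by the oxidase of myeloid cells.

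The 9 genes did not move as one group. At 24h against 0h, Nqo1 was 1.602-fold higher, and Srxn1, Prdx1 and Txn1 were 1.44-fold, 1.43-fold and 1.29-fold lower. Hmox1 was 1.16-fold higher at 24h, while Osgin1, Txnrd1 and Keap1 were 1.252-fold, 1.13-fold and 1.09-fold lower and Nfe2l2 did not differ detectably from 0h. The 24h calls of Hmox1, Osgin1 and Keap1 were lost with another tool, DESeq2, and when some single libraries were left out. None of the 9 passed a test for a change beyond 1.5-fold, which 6.68% of all genes tested passed at 24h.

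The promoters of the genes with the largest falls and of the gene with the largest rise are printed to describe their upstream sequence. Whether the matches go with the direction of change was not tested. Windows of 300 bases, 250 before the transcription start and 50 after, came from RefSeq (GRCm38.p6, the same assembly as mm10) for 8 of the 9 genes, with 10 starts in all because Txnrd1 has 3. Hmox1 is not in the table. Capitals mark matches on either strand to the antioxidant response element core, spelled TGACNNNGC, or to the AP-1 site, spelled TGANTCA. The windows are, in order, chr2:152105274-152105573 (plus strand), chr4:116685349-116685648 (plus), chr4:57956362-57956661 (minus) and chr8:107403156-107403455 (minus), each printed 5′ to 3′.
Srxn1: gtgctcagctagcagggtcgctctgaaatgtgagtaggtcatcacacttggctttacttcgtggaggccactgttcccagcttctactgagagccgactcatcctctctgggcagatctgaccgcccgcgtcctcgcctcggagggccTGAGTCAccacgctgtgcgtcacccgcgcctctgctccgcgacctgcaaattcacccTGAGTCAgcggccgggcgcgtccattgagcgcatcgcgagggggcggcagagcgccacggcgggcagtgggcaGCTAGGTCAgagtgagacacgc
Prdx1: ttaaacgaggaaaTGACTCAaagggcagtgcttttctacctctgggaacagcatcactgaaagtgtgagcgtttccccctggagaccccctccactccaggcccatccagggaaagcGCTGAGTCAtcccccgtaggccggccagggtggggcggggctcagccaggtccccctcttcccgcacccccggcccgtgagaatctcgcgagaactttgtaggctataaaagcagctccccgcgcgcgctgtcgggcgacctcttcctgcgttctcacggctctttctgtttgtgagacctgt
Txn1: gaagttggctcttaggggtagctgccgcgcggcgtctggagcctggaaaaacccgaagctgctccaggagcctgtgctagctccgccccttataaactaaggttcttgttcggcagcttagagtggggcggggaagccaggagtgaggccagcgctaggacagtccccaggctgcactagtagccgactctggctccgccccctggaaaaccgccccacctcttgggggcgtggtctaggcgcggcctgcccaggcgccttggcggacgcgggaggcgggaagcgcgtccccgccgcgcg
Nqo1: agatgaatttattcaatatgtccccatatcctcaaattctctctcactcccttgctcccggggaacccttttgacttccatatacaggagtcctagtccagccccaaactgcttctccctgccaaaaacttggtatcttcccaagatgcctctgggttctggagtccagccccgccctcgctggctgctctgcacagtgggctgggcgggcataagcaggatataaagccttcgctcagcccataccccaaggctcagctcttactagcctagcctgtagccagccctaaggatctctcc
The Srxn1 window held 1 antioxidant response element core, at 29 to 37 bases from the start, and 2 AP-1 sites, from -102 and from -45. In Prdx1 the element core lay at -133 to -125 and overlapped the AP-1 site that begins at -131, and a second AP-1 site began at -237. The Txn1 and Nqo1 windows held no match to either set of letters, which says nothing about sites elsewhere. Across the members, 4 of 10 windows held the element core (Nfe2l2, Prdx1, Srxn1 and the second start of Txnrd1) and 3 of 10 an AP-1 site (Osgin1, Prdx1 and Srxn1), against 12.4% and 7.81% of all 32851 windows of that length. The C/EBP-ATF response element that ATF4 binds, spelled TGATGNAA, was in none of the 10 windows and in 3.97% of all. The KLF box, spelled CCNCNCCC, which SP factors also bind, was in 7 of 10 windows and 49.5% of all. A match describes letters and is not evidence of binding.

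Expression was measured at a depth of 20394546 to 26041347 gene counts per library, at which a count of 0 allows at most 0.115 to 0.147 CPM. Klf4, which the transgene supplies, had 54 and 96 counts at 0h and 1951 to 3837 counts in the libraries of the later times. Its level was highest at 6h, with 151.6 and 151.0 CPM, then 114.5 and 110.6 CPM at 12h and 76.9 and 78.8 CPM at 24h. The leukaemia markers (Ptprc, Hoxa9, Hoxa10, Meis1, Mpo, Kit, Itgam, Cd34) were all present and summed to 1549–1591 CPM at 0h and 1462–1481 CPM at 24h. Markers of other cells differed between the times as well: those of late neutrophils went from 55.7–59.4 to 82.6–83.5 CPM, of mast cells and basophils from 242.9–252 to 175.1–175.8 CPM (5 of 7 with a count, Prss34 and Fcer1a at 0), and of macrophages from 65.5–70.8 to 41.0–44.7 CPM (6 of 10 with a count, with C1qa, C1qc, Marco and Timd4 at 0). Markers of megakaryocytes went from 13.4 to 7.95–9.04 CPM, of B cells from 11.1–12.2 to 8.56–8.80 CPM (with Ms4a1 and Pax5 at 0), of endothelium and stroma from 44.6–48.1 to 41.7–45.9 CPM (Kdr at 0), of erythroid cells from 2.21–2.49 to 2.92–3.03 CPM, and those of T and NK cells stayed at or below 0.209 CPM in every library. These sums can rest on a few genes. At 24h against 0h the late neutrophil list had 5 genes called higher and 2 lower, the leukaemia list 3 and 3, and the B cell list 1 and 1. Only 2 of the 10 macrophage markers were tested, with 1 called lower. Among all genes 26.1% were called higher and 24.8% lower. The part of any of these cell types in the changes below was not tested, and in bulk RNA fewer cells of a type and less RNA per cell cannot be told apart. Reads counted to no gene feature went from 5.25–5.70% of a library at 0h to 9.04–9.27% at 24h, and their part was not tested either.

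Of the regulators, Nfe2l2 (ENSMUSG00000015839, chr2:75675513-75704641, mm10, minus strand) was measured at 72.0 and 71.5 CPM at 0h, 81.6 and 78.6 CPM at 6h, 71.2 and 69.6 CPM at 12h, and 71.9 and 74.3 CPM at 24h. Both 6h libraries lay above every other library, and the rest lay between 69.6 and 74.3 CPM. The log2 fold change at 6h was 0.16 (SE 0.05, adjusted p = 0.0263 by edgeR's quasi-likelihood test with Benjamini-Hochberg adjustment, as throughout), and at 12h the level was lower than at 6h by a log2 fold change of -0.18 (SE 0.05, adjusted p = 0.00754), a call lost without 12h replicate 2 (0.0982). Against 0h it was not called at 12h (-0.03) or at 24h (0.03, 95% interval -0.08 to 0.13). The 6h call did not hold without either 0h library (adjusted p = 0.103 and 0.156), without 6h replicate 1 (0.123) or in DESeq2 (0.0954).

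Keap1 (ENSMUSG00000003308, chr9:21229730-21239361, minus strand), whose protein is the sensor that keeps NRF2 low, was at 93.6 and 93.2 CPM at 0h, 92.9 and 93.1 CPM at 6h, 91.8 and 90.04 CPM at 12h, and 88.5 and 82.2 CPM at 24h. The first 3 times lay within a few CPM of each other, and both 24h libraries were the lowest. Its log2 fold change at 24h was -0.13 (SE 0.05, adjusted p = 0.0257), and it was the only member not called over the whole time course (adjusted p = 0.074). The 24h call was lost with library totals as the only scaling (-0.07, adjusted p = 0.272), with a stricter filter (0.069), without either 0h library (0.0997 and 0.0926), without 24h replicate 2 (0.282) and in DESeq2 (0.0557). A correction for GC content and length gave a larger fall, called at 6h (-0.13, adjusted p = 0.0321), at 12h (-0.22, adjusted p = 9.44e-05) and at 24h (-0.32, adjusted p = 1.18e-07). Exons of the antisense gene Gm16754 overlap Keap1, and since the strand setting of the counting is not given in the sources used here their reads may not be told apart. Gm16754 had 22 to 29 counts in the 0h and 6h libraries and 52 to 71 in the later ones, at most 3.1% of the Keap1 counts.

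**Figure D1:**
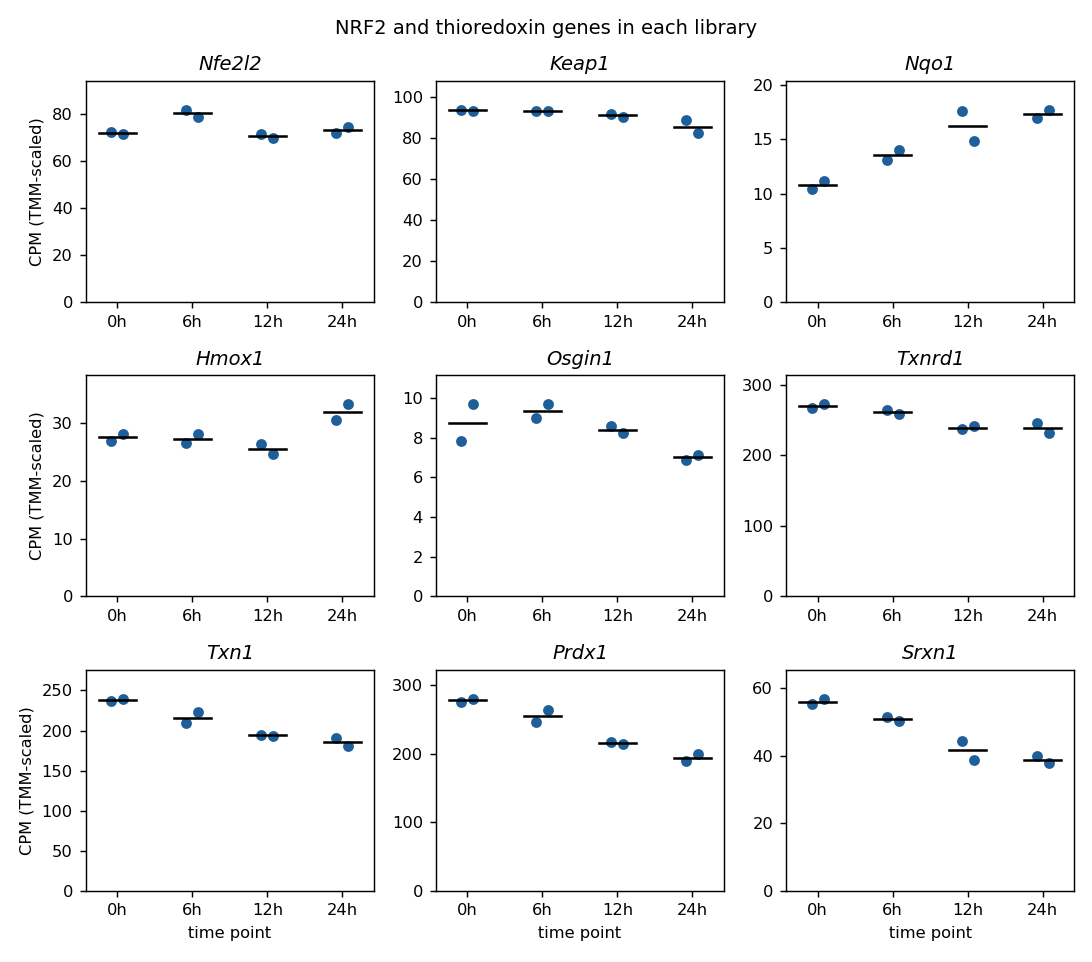
CPM (libraries scaled by TMM) of the 9 genes in each of the 8 libraries by time point; points are libraries, bars are means of 2, and each axis starts at 0. Nqo1 climbs from 10.5 and 11.2 CPM to 17.0 and 17.7 CPM, while Srxn1, Txn1 and Prdx1 step down from 0h to 24h.

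Among the classical NRF2 target enzymes, Nqo1 (ENSMUSG00000003849, chr8:107388225-107403206, minus strand), a quinone reductase often used as the readout of NRF2, was at 10.5 and 11.2 CPM at 0h, 13.1 and 14.0 CPM at 6h, 17.6 and 14.8 CPM at 12h, and 17.0 and 17.7 CPM at 24h. Every library of a later time lay above both 0h libraries, and the 12h and 24h libraries overlapped. The log2 fold change against 0h was 0.33 (SE 0.11, adjusted p = 0.0263) at 6h, 0.58 (SE 0.10, adjusted p = 1.59e-05) at 12h and 0.68 (SE 0.10, adjusted p = 5.82e-07, 95% interval 0.48 to 0.88) at 24h. The step from 6h to 12h was 0.26 and was not called (adjusted p = 0.0559). It was called with library totals, a stricter filter, both GC and length corrections and without 12h replicate 2, with adjusted p = 0.0101 to 0.0444. The rises at 12h and 24h were called under each alternative run except the test against a fold of 1.5 (adjusted p = 0.506 at 24h), and the 6h call was lost without either 0h library, without 6h replicate 2 and in DESeq2 (adjusted p = 0.0746 to 0.171).

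Hmox1 (ENSMUSG00000005413, chr8:75093621-75100589, plus strand), which encodes the inducible heme oxygenase that breaks heme down, was at 26.99 and 28.18 CPM at 0h, 26.5 and 28.1 CPM at 6h, 26.4 and 24.7 CPM at 12h, and 30.5 and 33.3 CPM at 24h. The 0h and 6h libraries overlapped, the 12h libraries were lower, and both 24h libraries were the highest of the 8. The log2 fold change at 24h was 0.21 against 0h (SE 0.07, adjusted p = 0.0153) and 0.32 against 12h (SE 0.07, adjusted p = 0.00353). It was not called at 6h (-0.01) or 12h (-0.11, adjusted p = 0.247). The 24h call against 0h was lost without 0h replicate 1 (adjusted p = 0.113), without 24h replicate 2 (0.168) and in DESeq2 (0.0833), and that against 12h without 12h replicate 2 (0.111) or 24h replicate 2 (0.0954).

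Osgin1 (ENSMUSG00000074063, chr8:119434124-119446256, plus strand), which encodes an oxidative stress induced growth inhibitor, was the least abundant, at 7.84 and 9.67 CPM at 0h, 8.97 and 9.68 CPM at 6h, 8.58 and 8.23 CPM at 12h, and 6.89 and 7.15 CPM at 24h. The 0h libraries spanned those of 12h, and only the 24h libraries lay below both. Its log2 fold change at 24h was -0.32 (SE 0.13, adjusted p = 0.0319), and those at 6h (0.09) and 12h (-0.06) were not called. Without 0h replicate 2 the 24h value was -0.16 (adjusted p = 0.453), and the call was also lost with library totals (0.0871), a stricter filter (0.0509), without either 24h library (0.123 and 0.0667) and in DESeq2 (0.114).

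The thioredoxin system was more abundant and fell. Txn1 (ENSMUSG00000028367, chr4:57943373-57956411, minus strand), the cytosolic thioredoxin, was at 237 and 239.7 CPM at 0h, 209 and 223 CPM at 6h, 194 and 194 CPM at 12h, and 190.4 and 180.5 CPM at 24h. The groups did not overlap and each was lower than the one before, with 2 libraries each. Of these steps, that from 12h to 24h was not called (log2 fold change -0.07, adjusted p = 0.42). On the log2 scale the change from 0h was -0.14 (SE 0.04, adjusted p = 0.0161) at 6h, -0.30 (SE 0.04, adjusted p = 5.39e-07) at 12h and -0.36 (SE 0.04, adjusted p = 5.99e-09, 95% interval -0.45 to -0.28) at 24h. The size of the fall moved with the correction for GC content and length, which left -0.08 at 12h (adjusted p = 0.0645, not called) and -0.11 at 24h (adjusted p = 0.00797) and turned the 6h value to 0.01. The form that also centres the mean gene left -0.10 at 12h (adjusted p = 0.0148) and -0.14 at 24h (adjusted p = 0.00112), both called. The 6h call was also lost with library totals (0.0723), without either 0h library (0.0706 and 0.132) and without 6h replicate 1 (0.254).

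Prdx1 (ENSMUSG00000028691, chr4:116685544-116700822, plus strand), a peroxiredoxin that thioredoxin recharges, was at 275.5 and 279.9 CPM at 0h, 246 and 264 CPM at 6h, 217 and 213 CPM at 12h, and 189 and 199.5 CPM at 24h. Each time lay wholly below the one before, as the plot of CPM by library shows. Against 0h the log2 fold change was -0.12 (SE 0.04, adjusted p = 0.0405) at 6h, -0.37 (SE 0.04, adjusted p = 9.07e-09) at 12h and -0.52 (SE 0.04, adjusted p = 1.61e-12, 95% interval -0.60 to -0.43) at 24h. Prdx1 was the one gene of the 9 called lower at 24h against 12h (-0.15, adjusted p = 0.029), a call lost without either 12h library or without 24h replicate 1 (adjusted p = 0.134 to 0.252). The 6h call was lost under 12 alternatives beside the test against a fold of 1.5, among them the omission of either 0h library, of 6h replicate 1 or of either 12h library (adjusted p = 0.0503 to 0.512). Annotations name a pseudogene of Prdx1 and one of Txn1, so reads shared with these copies leave both levels uncertain.

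Srxn1 (ENSMUSG00000032802, chr2:152105516-152111376, plus strand) encodes sulfiredoxin, which repairs overoxidised peroxiredoxins. It was at 55.3 and 57.0 CPM at 0h, 51.6 and 50.4 CPM at 6h, 44.3 and 38.9 CPM at 12h, and 40.0 and 37.8 CPM at 24h. The 12h and 24h libraries overlapped and lay below all others. The log2 fold change was -0.14 at 6h, which was not called (SE 0.06, adjusted p = 0.117), -0.43 (SE 0.06, adjusted p = 6e-07) at 12h and -0.53 (SE 0.06, adjusted p = 6.81e-09, 95% interval -0.66 to -0.40) at 24h, the largest fall of the 9. The step from 6h to 12h was -0.29 (adjusted p = 0.000797). Without 12h replicate 2 it was -0.20 and not called (adjusted p = 0.0839), and the value from 12h to 24h was then -0.19 in place of -0.10.

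Txnrd1 (ENSMUSG00000020250, chr10:82833951-82897712, plus strand), the cytosolic thioredoxin reductase, was at 267 and 272 CPM at 0h, 264 and 259 CPM at 6h, 237 and 242 CPM at 12h, and 246 and 231 CPM at 24h. The 12h and 24h libraries overlapped and lay below those of 0h and 6h. Relative to 0h, its log2 fold change was -0.05 at 6h (adjusted p = 0.515, not called), -0.17 (SE 0.04, adjusted p = 0.000936) at 12h and -0.18 (SE 0.04, adjusted p = 0.000616) at 24h. The falls of Prdx1, Srxn1 and Txnrd1 at 12h and 24h, and that of Txn1 at 24h, were called under each alternative run except the test against a fold of 1.5.

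**Figure D2:**
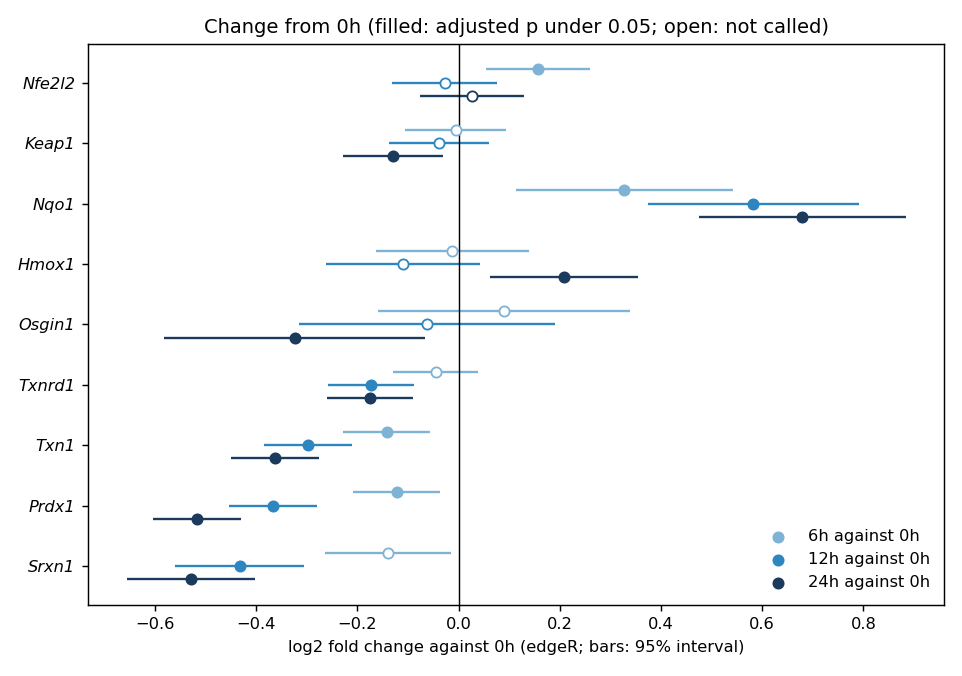
Log2 fold change of the 9 genes at 6h, 12h and 24h against 0h, with 95% intervals from edgeR; filled points had an adjusted p under 0.05 and open points did not. Nqo1 lies to the right of 0 at all 3 times, and Srxn1, Prdx1 and Txn1 lie to the left, farther at 12h and 24h than at 6h.

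Counted together, 4 of the 9 genes were called at 6h, 2 higher and 2 lower, where 18.3% of all genes tested were called, 9.74% higher and 8.58% lower. At 12h 5 were called, 1 higher and 4 lower, against a background of 43.7% (22.1% higher, 21.6% lower). At 24h 8 were called, 2 higher and 6 lower, against 50.9% (26.1% higher, 24.8% lower). From 6h to 12h 5 were called, each of them lower, where 20.7% of all genes were called (10.9% higher, 9.79% lower), and from 12h to 24h 1 rose and 1 fell, where 6.46% were called (3.41% higher, 3.04% lower). For 6h to 12h, library totals gave 1 higher and 4 lower. Without 12h replicate 2 the calls of Nfe2l2, Txnrd1, Srxn1 and Txn1 were lost, at log2 fold changes of -0.17, -0.14, -0.20 and -0.15. Nqo1 was then called higher (0.37). Over the whole time course 8 of 9 were called and 52.8% of all genes.

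The median log2 fold change of the 9 was -0.01 at 6h, -0.11 at 12h and -0.18 at 24h, beside -0.004, 0.002 and 0.02 for all genes. At 24h, Nqo1 lay above 86.3% of all genes tested by its log2 fold change, and Srxn1 and Prdx1 lay above 6.1% and 6.4%. In the test against a fold of 1.5, edgeR called 0 of the 9 in each of the 5 comparisons, and 0 also at an unadjusted p under 0.05. Of all genes, that test called 1.49% at 6h, 4.21% at 12h, 6.68% at 24h, 0.596% from 6h to 12h and 0.287% from 12h to 24h. With DESeq2, 1 member was called at 6h and 5 each at 12h and 24h, and with library totals as the only scaling 2 were called at 6h, both higher.

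Ordered by level per kilobase of exon, Txn1 led at every time, with 226.9 CPM per kb at 0h and 176 CPM per kb at 24h, followed by Prdx1 (91.3 and 63.8) and Txnrd1 (38.1 and 33.7). Srxn1 and Keap1 shared the fourth place at 0h with 19.9 CPM per kb each and overlapping libraries, ahead of Nfe2l2 (18.9), Hmox1 (15.8), Nqo1 (6.97) and Osgin1 (3.27). At 24h the fourth place went to Nfe2l2 (19.3 CPM per kb), whose libraries overlapped those of Hmox1 (18.2), which in turn overlapped Keap1 (18.2). Srxn1 had moved below them to 13.8 CPM per kb and Nqo1 stood at 11.2 CPM per kb. Osgin1 stayed last at 2.62 CPM per kb.

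**Figure D3:**
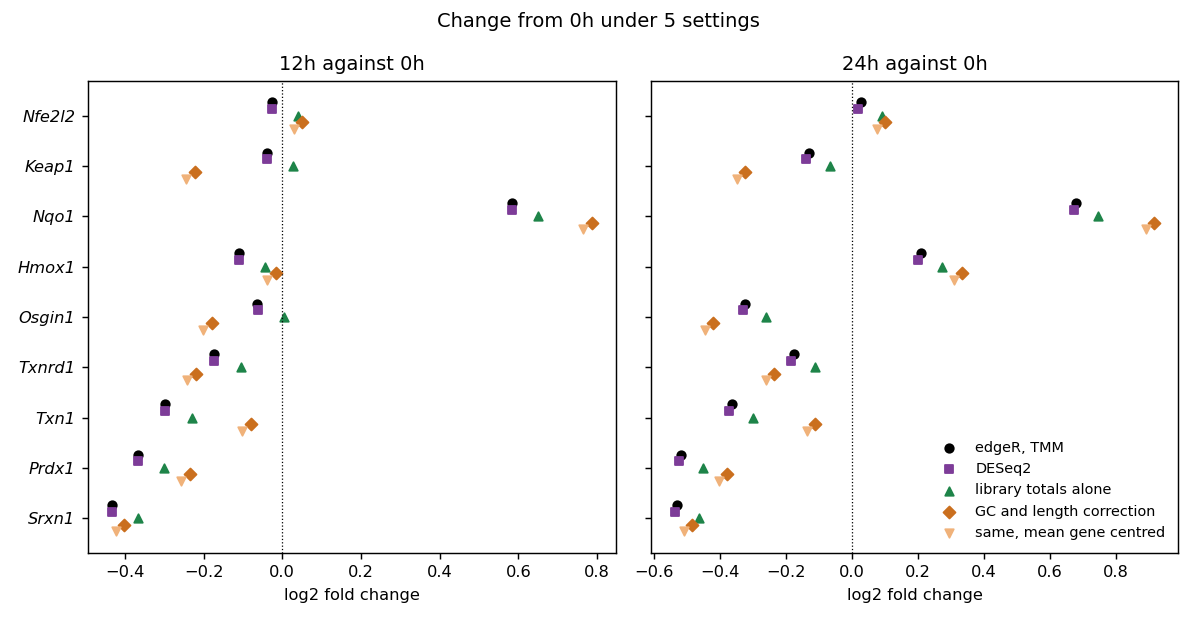
Log2 fold change of the 9 genes at 12h (left) and 24h (right) against 0h under 5 ways of scaling or testing, marked by symbol. Nqo1 stays right of 0 and Srxn1, Prdx1, Txnrd1 and Txn1 left of it under all 5. The GC and length corrections bring Txn1 close to 0, make the fall of Prdx1 smaller and move Keap1 away from 0.

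The plot of changes under 5 settings shows how far each member moved with the scaling. With library totals the median log2 fold change of all genes was 0.03 at 6h, 0.07 at 12h and 0.08 at 24h, smaller than the changes of Nqo1, Srxn1, Prdx1 and Txn1 at 12h and 24h. For Nfe2l2, Keap1 and Osgin1 at 12h and for Keap1, Hmox1 and Osgin1 at 6h, none of them called, the sign turned under at least 1 scaling. Txn1 at 6h, which was called (-0.14), turned to 0.01 with the GC and length correction. With the GC and length correction the rise of Nqo1 at 24h was 0.92 on the log2 scale, against 0.68 without it.

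Genes whose log2 CPM followed the members most closely over the 8 libraries were sought among 8810 genes, for the 2 members with the largest changes at 24h. For Nqo1 these included Limd1 (Pearson r = 0.99), Rhof (0.99), Lmf1 (0.98) and Zfand2b (0.98), with log2 fold changes at 24h of 0.31 to 0.63. For Srxn1 they were G3bp1, Trim27, Gtf2f1, Nup93 and Exoc8 (r = 0.99 each), with changes of -0.41 to -0.12. These are descriptions over libraries that share the same 4 time points, and the highest of many coefficients.

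The other genes of the pathway were described in 6 lists, of which 82 genes were tested. At 24h 11 of the 82 were higher and 46 lower, beside 26.1% and 24.8% of all genes, and at 12h 10 were higher and 43 lower, beside 22.1% and 21.6%. At 6h 8 were higher and 26 lower, beside 9.74% and 8.58%, and without 0h replicate 2 these were 7 and 9, without 6h replicate 1 7 and 10. With library totals the higher share of the pathway calls at 6h was 39.1% in place of 23.5%. The lists are not independent evidence of a direction, since they were drawn up with earlier results of these data known. The genes named below by the rule and called at 24h kept their direction there under the 5 other scalings and tools run.

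Of the genes that control or partner NRF2, 2 of 12 tested rose at 24h, 4 fell and 6 were not called, with a median log2 fold change of -0.01. Among all genes 26.1% rose and 24.8% fell, and counts this small do not set the list apart. Nfe2l1, a relative of NRF2 known for proteasome genes, rose from 229.4 ± 6.32 to 358 ± 4.30 CPM (SD, n = 2; log2 fold change 0.64, SE 0.04, adjusted p = 1e-15), and its level was already higher at 6h (0.39). Sqstm1, an autophagy receptor that binds KEAP1, fell (-0.31), as did Park7, which protects against oxidants (-0.31), and Bach1, a repressor that competes with NRF2 at heme-responsive targets such as Hmox1 (-0.26). Unlike Nfe2l1, Nfe2l2 itself was called only at 6h, though the difference between the 2 genes was not tested.

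Of the other NRF2 target enzymes and transporters, 2 of 24 tested rose at 24h, 14 fell and 8 were not called (median -0.19), beside 26.1% and 24.8% of all genes. One of the risers was Slc7a11, the cystine transporter that is also a known target of ATF4, from 8.61 ± 0.91 CPM at 0h to 25.6 ± 1.20, 33.5 ± 1.53 and 52.7 ± 0.66 CPM at 6h, 12h and 24h (SD, n = 2; log2 fold change 2.62 at 24h, SE 0.08, adjusted p = 6.47e-25). The other was the glutathione transferase Gstm1 (0.13, adjusted p = 0.0147), named after its value was seen. The ferritin chains Ftl1 and Fth1 fell (-0.60 and -0.40), with levels uncertain because ferritin has many pseudogenes, and so did Idh1, a cytosolic source of NADPH (-0.45). Of the genes for glutathione synthesis, Gclm was lower at 24h (-0.23, adjusted p = 1.58e-05) and Gclc was not called (-0.09), both named after their values were seen. At 6h and 12h 1 and 3 genes of the list were higher and 7 and 12 lower. The shares of all genes were 9.74% and 22.1% higher and 8.58% and 21.6% lower.

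Of the other thioredoxin fold and related genes, 15 of 24 fell at 24h, 4 rose and 5 were not called (median -0.21), and Txn1, Prdx1 and Txnrd1 fell at the same time. Among all genes 24.8% fell and 26.1% rose. Txn2 (-0.37), the mitochondrial thioredoxin, Glrx5 (-0.54), a mitochondrial glutaredoxin for iron-sulfur clusters, and Glrx3 (-0.34) fell. Sesn2, a sestrin induced by stress and a known ATF4 target, rose from 58.4 ± 2.94 to 111 ± 0.39 CPM (SD, n = 2; log2 fold change 0.93, SE 0.05, adjusted p = 1.22e-17). The other 3 that rose, named after their values were seen, were Txnrd3 (0.59), Sesn3 (0.39) and Txnip, an inhibitor of thioredoxin (0.23).

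Of the superoxide and peroxide enzymes, 6 of 8 fell at 24h, 1 rose and 1 was not called (median -0.28, the same with the riser taken at its lower bound). Among all genes 24.8% fell and 26.1% rose. Sod1 (-0.43) and catalase, Cat (-0.36), fell, and so did the glutathione peroxidase Gpx1 (-0.28). The riser was Sod3, the extracellular superoxide dismutase, with 0 counts in both 0h libraries. The 6h libraries held 29 and 38 counts, those of 12h 130 and 101, and those of 24h 227 and 188. Its level was at least 19.97-fold, 67.2-fold and 112.2-fold higher than a floor of 3 counts over both 0h libraries (0.0721 CPM).

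Of the 6 subunits and activators of the phagocyte NADPH oxidase, a source of superoxide, 2 rose at 24h, 1 fell and 3 were not called. Among all genes 26.1% rose and 24.8% fell, and counts this small do not set the list apart. Cybb, its catalytic subunit, went from 2.43 ± 0.02 CPM at 0h to 1.65 ± 0.16 and 2.12 ± 0.28 CPM at 6h and 12h and 9.63 ± 0.08 CPM at 24h (SD, n = 2; log2 fold change 1.99 at 24h, SE 0.17, adjusted p = 1.57e-12). Its rise appeared only between 12h and 24h (2.18, adjusted p = 3.04e-12), the interval in which the summed late neutrophil markers went from 58.2–62.1 to 82.6–83.5 CPM, and their part in it was not tested. Hmox1 also rose in that interval. Ncf1 rose (0.28) and Rac2 was not called at 24h (0.001).

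Of the genes for heme synthesis, transport and breakdown other than Hmox1, 6 of 8 fell at 24h and 2 were not called (median -0.26). Among all genes 24.8% fell. Those of the list that fell included Hmox2, the constitutive heme oxygenase (-0.40), the heme transporter Slc48a1 (-0.43), Alas1, which starts heme synthesis (-0.30), and Slc40a1, the iron exporter (-0.36). Hmox1 was thus higher at 24h while Hmox2 was lower, a contrast not tested as such.

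**Figure D4:**
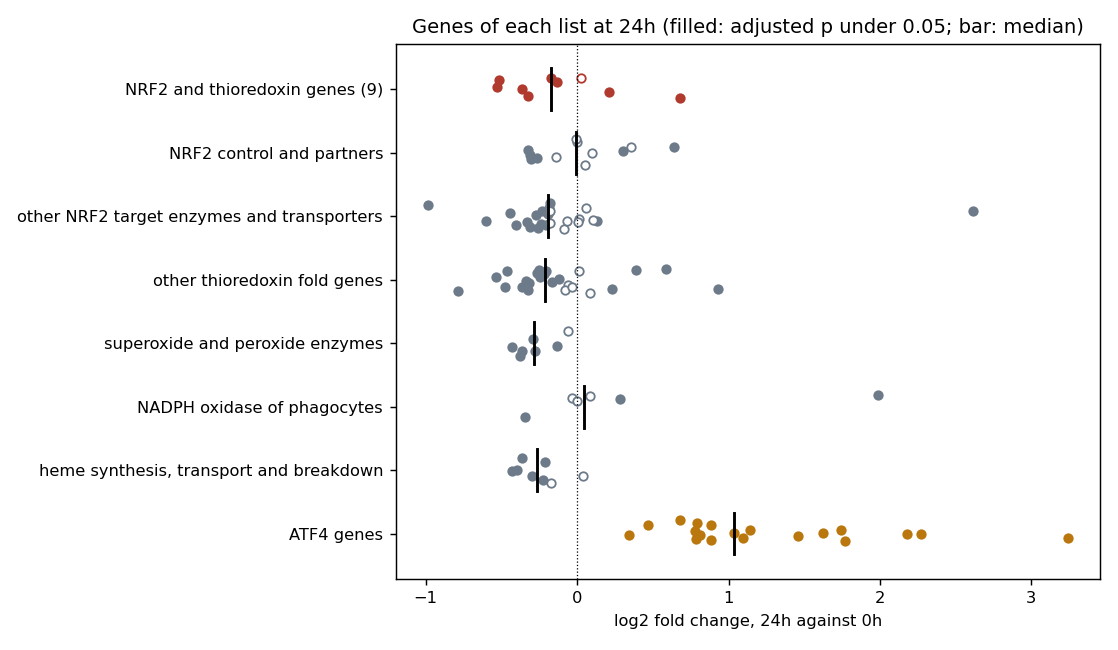
Log2 fold change at 24h against 0h of each tested gene of the 9 members and of the 7 other lists; filled points had an adjusted p under 0.05, open points did not, and black bars are medians. Sod3, whose 0h counts were 0, is left out of the points but is in its list's median; the ATF4 genes lie to the right of 0 and most antioxidant genes lie close to 0 or to its left.

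The ATF4 genes, which answer amino acid shortage and endoplasmic reticulum stress, give the comparison that the choice of members asks for, and the plot of lists at 24h sets them side by side. All 19 of 19 rose at 6h, 12h and 24h, where 9.74%, 22.1% and 26.1% of all genes were called higher. The median log2 fold change of the 19 was 0.47, 0.72 and 1.04, where the 9 members had -0.01, -0.11 and -0.18. Both sets were measured against the same 0h libraries, and the ATF4 list was drawn up with these results known, so its direction is a description. Trib3, a pseudokinase, rose from 9.27 ± 0.31 to 88.0 ± 2.62 CPM at 24h (SD, n = 2; log2 fold change 3.25, SE 0.07, adjusted p = 1.11e-29). Chac1, which degrades glutathione, rose from 9.34 ± 0.34 to 45.1 ± 0.46 CPM (2.27), Stc2 from 37.6 ± 0.22 to 126 ± 8.41 CPM (1.74), and Pck2, the mitochondrial phosphoenolpyruvate carboxykinase, from 88.9 ± 4.32 to 274.5 ± 8.997 CPM (1.63). The 19 values at 24h ran from 0.34 for Psat1 to 3.25 for Trib3, and those of the 9 members from -0.53 for Srxn1 to 0.68 for Nqo1. Slc7a11 and Sesn2, counted above among the antioxidant lists, are not in this list of 19 although ATF4 is known to induce both.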

How the data were processed

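RNA sequencing counts of 8 libraries were used, 2 at each of 0h, 6h, 12h and 24h. The authors deposited unnormalized read counts for each Ensembl gene, made on mm10 with STAR, SAMtools 1.3 and HTSeq 2.0.3 per the submitters' processing notes. Annotation release, strand setting and filters are not stated, so reads of overlapping, antisense or near-identical genes may be misassigned. Each file held 47069 gene rows and 5 summary rows, which were left out of library sizes. GENCODE M21 named 46574 of the gene IDs, and the other 495 held at most 0.0254% of a library.

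Low counts were removed with edgeR's filterByExpr, grouped by time, and the rest tested with edgeR 4.0.16 in R 4.3.3. Libraries were scaled by TMM and entered 1 quasi-likelihood fit with a mean per time point and 4 residual degrees of freedom (biological coefficient of variation 3.10%, prior degrees of freedom 32.1). P-values are two-sided and Benjamini-Hochberg adjusted over 14263 genes, and a gene was called under 0.05. The SE is the size of the log2 fold change divided by the square root of F, and 95% intervals use it. The level a count of 0 allows is 3 counts and covers counting error only. The fit was also run on counts simulated with its own estimate of the spread, which cannot show whether that estimate suits these libraries.

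The members and lists were chosen with earlier results of these data known. Beside the members, up to 4 genes per list with the smallest time course p were named, and a few genes that this rule or the marker lists would name are not reported here. Alternatives were DESeq2 1.42.0, its size factors in edgeR, library totals alone, no filter or a stricter one (mean log2 CPM of at least 1), the replicate number as a block, only the 2 times compared, a test against a fold of 1.5, 2 corrections for GC content and length (both known for 14212 genes), and leaving out each library.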

Additional observations from a re-analysis of the deposited data

How the results depend on the processing

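In the test against a fold of 1.5 the number of members called was 0 in the 5 comparisons. Library totals alone gave 2 at 6h against 0h (both higher), and DESeq2 gave 1 at 6h and 5 at 24h. With 1 library left out, the counts ran from 0 to 4 at 6h, 5 to 5 at 12h, 5 to 8 at 24h, 2 to 5 from 6h to 12h, 0 to 2 from 12h to 24h and 6 to 8 over the time course. The 6h count was 0 without either 0h library and 1 without 6h replicate 1. The 24h count was 5 without 24h replicate 2, that from 6h to 12h was 3 when 12h replicate 1 was left out and 2 when 12h replicate 2 was, and that from 12h to 24h was 0 without 12h replicate 2 and 1 without each of the other 3 libraries of those times. A library left alone at its time was assumed to vary like the others.

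In the order 6h, 12h and 24h against 0h, 12h against 6h and 24h against 12h, the test against a fold of 1.5 called 213, 600, 953, 85 and 41 of all genes and 2, 2, 4, 1 and 1 of the pathway genes. DESeq2 called 1668 of all genes at 6h, 1632 from 6h to 12h and 450 from 12h to 24h, and 22 and 9 of the pathway genes at 6h and from 12h to 24h. Leaving out 1 library gave 1312 to 2703, 4573 to 6521, 5674 to 7498, 1286 to 3031 and 367 to 1254 of all genes, and 16 to 37, 44 to 56, 49 to 58, 7 to 29 and 7 to 17 of the pathway genes. The share of calls that were higher was 69.9%, 65.4%, 62.8% and 68.4% with library totals in the first 4 comparisons, in place of 53.2%, 50.6%, 51.3% and 52.6%. It was 36.7% at 6h with the mean gene centred in the GC correction, and 41.4% without a filter from 12h to 24h, in place of 52.9%. The higher share of pathway calls from 6h to 12h was 43.8% with library totals and 23.8% without.

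Of 810 values of single members under the alternatives, 696 kept their direction and side of the threshold, 81 lost a call, 9 gained one and 24 turned sign. Of those that turned, only Txn1 at 6h was called in the fit reported. The turned values are log2 fold changes. With library totals they were 0.0398 for Nfe2l2 at 12h, 0.0285 and 0.0284 for Keap1 at 6h and 12h, 0.0214 for Hmox1 at 6h and 0.00415 for Osgin1 at 12h. With the GC and length correction they were 0.0508 for Nfe2l2 at 12h, 0.0451 for Hmox1 at 6h and 0.00879 for Txn1 at 6h. With the mean gene also centred they were 0.0285 for Nfe2l2, 0.0292 for Hmox1 and -0.00922 for Osgin1 at 6h. Keap1 at 6h was 0.00581 with no filter, 0.00437 with a stricter one and 0.00387 with only the times compared, and Txnrd1 from 12h to 24h was 0.00175 with the stricter filter. With 1 library left out, the values ran from -0.00899 to 0.00572 for Keap1, -0.0568 to 0.0351 for Hmox1 and -0.0488 to 0.2534 for Osgin1 at 6h, from -0.2019 to 0.1004 for Osgin1 at 12h, and from -0.0225 to 0.2265 for Nqo1, -0.0490 to 0.0423 for Txnrd1 and -0.1881 to 0.00231 for Srxn1 from 12h to 24h. The causes were not tested.

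Same-numbered libraries did not deviate together over all genes tested (correlations of -0.0171 to 0.0211). With 2 libraries per time, this cannot settle whether the numbers mark a shared animal or culture. With the replicate number as a block, 4, 5, 8, 5 and 2 members, 2495, 6116, 7160, 2812 and 836 of all genes and 34, 53, 57, 21 and 13 pathway genes were called.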
